A study of Homo sapiens with 6 samples.

Results

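The Arp2/3 complex mRNAs are the transcripts of ACTR2, ACTR3, ARPC1A, ARPC1B, ARPC2, ARPC3, ARPC4 and ARPC5, 8 of 10459 transcripts in the data that were matched to a reference sequence. The list is the complex, and ACTR2 was chosen by its measured reverse transcriptase (RT) stops, since its transcript NM_001005386 has G-rich places in the 3′ UTR where stops at G changed with the cation. Stops in the libraries made without dimethyl sulfate (DMS) are therefore given for all 8 mRNAs as a description. All 8 mRNAs were found, and each had at least 1 stop per nucleotide on average in both of those libraries.

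The Arp2/3 complex starts a new actin filament from the side of an existing filament, which makes the branched networks of lamellipodia and endocytic patches. ACTR2 and ACTR3 encode ARP2 and ARP3, the actin-related subunits that serve as the first subunits of the branch. ARPC2 and ARPC4 form the core that holds the complex on the mother filament, ARPC1A and ARPC1B are alternative forms of a propeller-shaped subunit, ARPC3 binds ARP3, and ARPC5 tethers ARP2. An RNA G-quadruplex (rG4) is a stack of guanine quartets that K+ stabilizes more than Na+ and Li+ hardly stabilizes, and it can halt RT at its 3′ edge.

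The data are RT stops on poly(A)-selected mRNA of U2OS, a human osteosarcoma line, with 1 library per condition and 6 libraries in all. In 2 libraries the RNA had no DMS treatment and RT ran in 150 mM K+ or 150 mM Na+, which marks places where a cation changes the halting of RT. In 2 libraries the RNA was refolded and treated with DMS in vitro in 150 mM K+ or Li+, and in 2 more cells were treated with 8% DMS for 5 min, either unstressed or starved for 2 h. All 4 DMS libraries were reverse transcribed in 150 mM K+. DMS methylates A and C at the base-pairing face, which stops RT, and N7 of G that is not in a quartet, which keeps an rG4 that was unfolded in the cell from forming during RT. No condition was repeated, so no difference between conditions has a replicate check, and all intervals are 95% intervals that cover counting error only.

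Without DMS, the listed stops summed to 35371061 in the library labelled K+ and 33507714 in that labelled Na+. After DMS they summed to 21480565 for RNA folded in K+, 31174408 for RNA folded in Li+, 12999691 in unstressed cells and 24014417 in starved cells. Where the sample labels give Na+ for RT without DMS, the methods text gives Li+. For the pair without DMS, the deposited file names give the opposite cation to the sample labels. These libraries are called here "labelled K+" and "labelled Na+", and every direction between them turns if the names are right and the labels wrong. Of 6 markers of mesenchymal and bone cells, 5 were matched, and VIM, the intermediate filament vimentin, had 2583 stops per 1000000 stops of matched transcripts (SPM) in unstressed and 2453 in starved cells. SPARC went from 852 to 263 SPM, COL1A1 from 659 to 185 and FN1 from 247 to 87.2, while the bone factor RUNX2 had 26.8 and 48.0. COL1A1 was under the minimum in starved cells, and FN1 and RUNX2 were under it in both libraries of cells. In unstressed cells the 8 blood markers had 1.94 SPM together, all from CORO1A, and the 3 epithelial markers had 5.26, all from EPCAM. In any of the 6 libraries they had at most 3.45 and 9.66. No transcript of the liver marker or the 2 endothelial markers was matched.

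The RT-stop enrichment score (E) is the stop count at a nucleotide over the mean count per nucleotide of its transcript. A strong stop has an E of at least 10, and a cation-sensitive stop is a strong stop whose E differs at least 2-fold between the libraries labelled Na+ and K+. Among 2539 G nucleotides with listed stops on the 8 mRNAs, 19 were cation-sensitive (0.748%), all stronger in the library labelled Na+, against 0.442% of G nucleotides on all transcripts past the minimum. The opposite direction, stronger in the library labelled K+, was found at 0.0246% of all such G nucleotides and at 0 on the 8 mRNAs. The 19 stops lay on 6 of the 8 mRNAs, with 18 in 3′ UTRs, 1 in a 5′ UTR and 0 in coding sequence. Of all transcripts past the minimum, 37.6% had such a stop anywhere and 23.0% had it in the 3′ UTR, against 6 of 8 (75.0%) and 5 of 8 (62.5%) here. ACTR2 was chosen for its stops, so these shares describe the list and nothing more was read from them. Merged within 30 nt, the 19 stops formed 8 sites.

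The sequences below are the 30 nt that end at the strongest stop of 5 sites, shown because the stops fall at the 3′ end of G-rich stretches. They were read from GENCODE release 44 transcripts on GRCh37 (hg19), are written 5′ to 3′ with T for U, and have runs of at least 2 G in capitals. All of them lie in the last exon, in the 3′ UTR.
ACTR2 site 1, chr2:65496266-65496295 on the plus strand: tGGGatGGGGGGtGGttcGGGatGGGtGGG
ACTR2 site 2, chr2:65496420-65496449 on the plus strand: agtgttttGGGtGGGttttgttgcGGGGGG
ACTR3, chr2:114715039-114715068 on the plus strand: cttcatagttattGGGGttaGGGaGGtGGG
ARPC1B site 1, chr7:98992143-98992172 on the plus strand: ctgctGGGGaagcGGGGagaGGGGtcaGGG
ARPC3, chr12:110872783-110872812 on the minus strand: gtGGGagaaaagaaagtGGGttatcaaGGG
The ACTR2 site 1 and ARPC1B site 1 stretches hold at least 4 runs of 3 or more G, whereas the ARPC3 stretch holds 3 runs. Of the 19 stops, 10 were at the last G of a run and 8 at the G before it, and 17 were in runs of at least 3 G. In the 45 nt that end at the strongest stop, 6 of 8 sites matched a pattern of 4 runs of 2 or more G. The loops between these runs were of 1 to 9 nt. A pattern of 4 runs of 3 or more G, with loops of 1 to 7 nt, was matched by 4 of 8. Loops could hold any base, G included, so a long run could be split into several. ACTR2 site 2, whose sequence above holds 3 separate runs, matched the first pattern in this way. Over all sites of all transcripts these patterns, searched on the transcript strand, were found at 82.1% and 19.6%, and at listed G nucleotides that were no strong stop at 11.1% and 0.282%.

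ACTR2 carried both of its sites in a 3′ UTR of 2519 nt, in exon 9 of 9. Site 1 lay 427 nt past the stop codon, at nucleotide 1842 of the transcript, with a weaker stop at the G before it. Its stop count was 918 with the label Na+ and 11 with the label K+ (E of 156 and 1.97, a 79.1-fold difference with an interval of 44.0 to 159). The count at nucleotide 1842 was 92 in vitro in K+, 50 in vitro in Li+, 21 in starved cells and under the listing minimum of 3 in unstressed cells. Thus the same G had an E of at least 7.38 in 4 of the 6 libraries and was missing from the list in unstressed cells.

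Site 2 of ACTR2 was broader, with 6 cation-sensitive stops spread over 15 nt at the ends of 3 successive G runs. Its strongest stop, at nucleotide 1996 and 581 nt past the stop codon, had 572 counts in the library labelled Na+ (E of 97.0) and was not listed in the library labelled K+, so the difference was at least 181-fold against a floor of 3 counts. The stop at nucleotide 2001 was nearly as strong, with 536 and 12 counts (E of 90.9 and 2.15). Nucleotides 2010 and 2011 each had 258 counts in the library labelled Na+. Summed over its 6 stops, site 2 had 1882 counts in the library labelled Na+ and 31 in that labelled K+, a 57.6-fold difference in E (interval 40.4 to 85.0).

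The 2 sites were 154 nt apart. In the 3′ UTRs of all transcripts past the minimum, 626 transcripts had at least 2 cation-sensitive stops at G, and in 81.8% of them the closest pair was directly adjacent, as at both ACTR2 sites. At least 2 separate sites were found in 279 of 843 3′ UTRs. The gap between neighbouring sites had a median of 316 nt (quartiles 128 and 640), and 29.6% of 423 gaps were shorter than that of ACTR2.

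**Figure D1:**
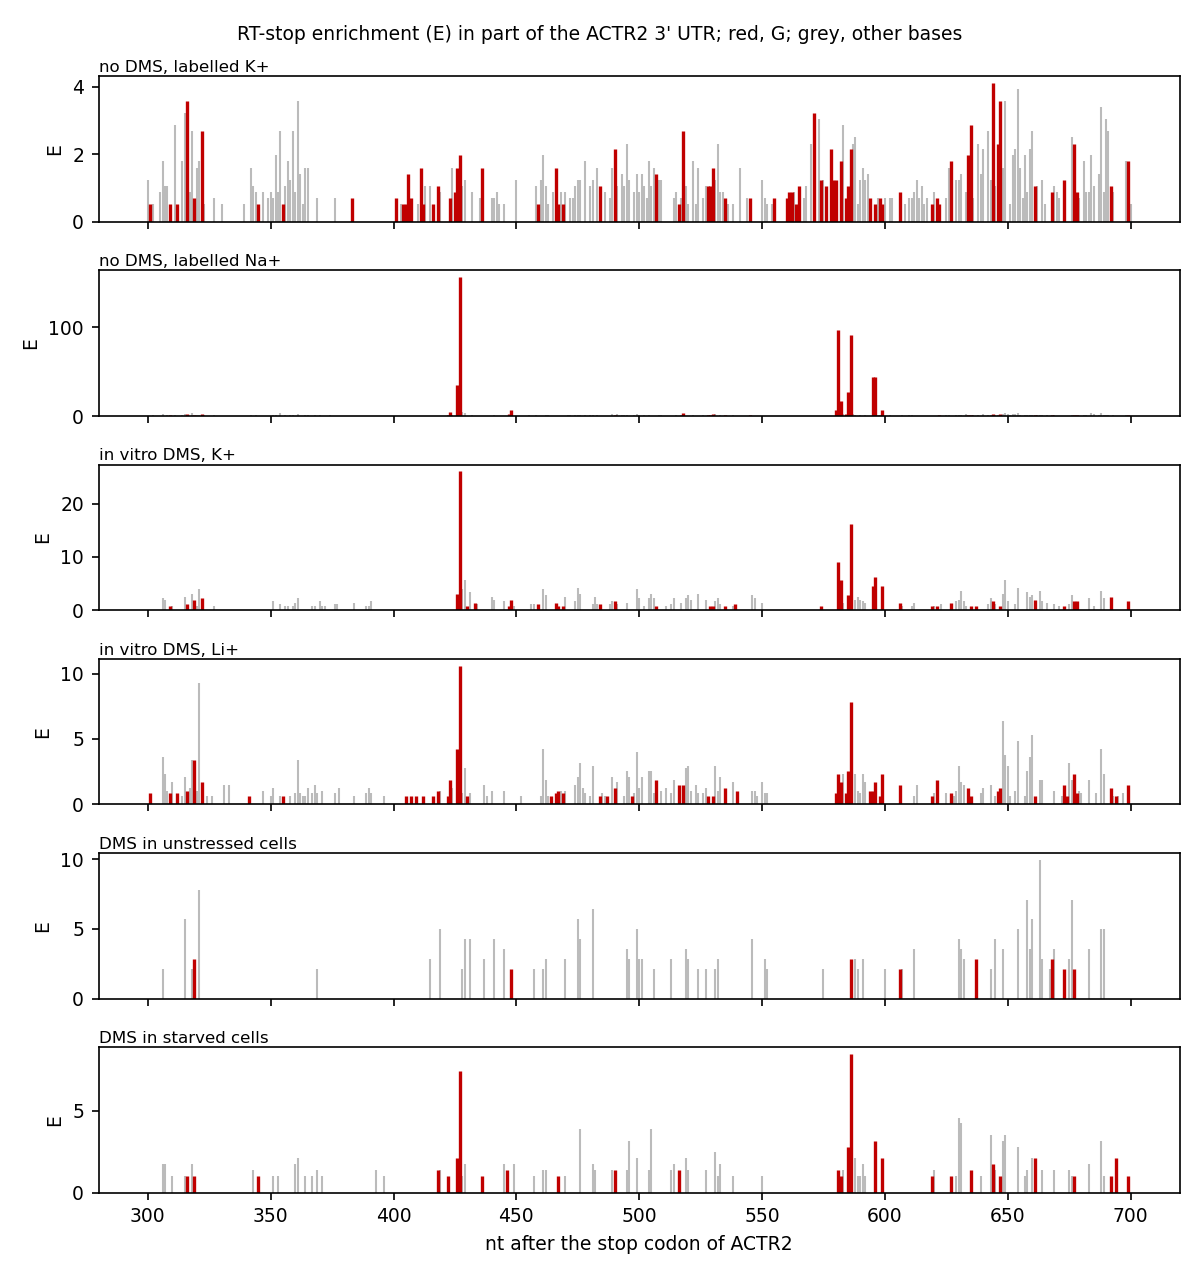
RT-stop enrichment score (E, vertical axes with their own scales) against distance from the ACTR2 stop codon in nt, 1 panel per library, with G in red and other bases in grey. The red peaks at 427 nt and from 581 to 596 nt reach an E of 156 and 97.0 in the library labelled Na+ and recur in vitro and, in part, in starved cells, while unstressed cells have only the G at 586 nt, with an E of 2.85.

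The in vitro values were not part of the rule that chose ACTR2. At site 1, E was 26.0 after refolding in K+ and 10.6 after refolding in Li+, a ratio of 2.46 (interval 1.73 to 3.55). At the strongest stop of site 2, E was 9.05 and 2.32, a ratio of 3.90 (interval 1.91 to 8.57), and over its 6 stops the ratio was 2.60 (interval 1.97 to 3.44). Over the 2 stops of site 1 it was 1.97 (interval 1.44 to 2.71), under the limit for a folding score. Both ACTR2 sites therefore halted RT more after folding in K+, by more than the counting error.

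In cells, the folding score places E on a scale from 0, the value in vitro in Li+, to 1, the value in K+. At ACTR2 site 1, the score was -0.68 in unstressed cells and -0.21 in starved cells (interval from the count in cells -0.39 to 0.05). The unstressed score counts the stop as 0, and with 2 counts, the most that is not listed, it was -0.59 (interval -0.67 to -0.35). The count of 21 in starved cells gave an E of 7.38, at least 3.46-fold above that in unstressed cells against a floor of 3 counts, and 5.19-fold against 2 counts (interval 1.27 to 45.6). At the strongest stop of site 2, the scores were -0.35 and -0.14 on 0 and 4 counts in cells. Summed over the 6 stops of site 2, the listed counts were 4 without and 48 with starvation (scores -0.52 and -0.01), a ratio in E of 5.93 (interval 2.17 to 22.6), but 5 of the 6 stops were not listed in unstressed cells. With these and the 1 stop not listed in starved cells counted as 2, an alternative added after seeing the data, the ratio in E was 1.76 (interval 0.96 to 3.46). The scores were then -0.26 and 0.02. Site 1 was thus stronger in starved than in unstressed cells, with a score near or under the level in Li+. The summed difference at site 2 depended on how stops that were not listed were counted. At nucleotide 1996, its strongest stop by the label Na+, the unstressed score was -0.13 with 2 counts, and no difference could be called. Only nucleotide 2001 of site 2 was listed in both libraries of cells, with 4 counts unstressed and 24 starved. Its E was 2.85 and 8.44, higher in starved cells without a choice about stops that were not listed. After refolding, E at this nucleotide was 16.1 (K+) and 7.82 (Li+). No interval was calculated for this stop alone.

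The A and C nucleotides around the ACTR2 sites were few, 19 within 30 nt of site 1 and 12 within 30 nt of site 2. Their mean E near site 1 was 0.395 (labelled K+) and 0.642 (labelled Na+) in untreated RNA, 1.18 (K+) and 0.511 (Li+) in vitro, 1.65 in unstressed cells and 0.463 in starved cells. Near site 2 it was 1.04 and 0.607 in untreated RNA, 0.990 (K+) and 1.02 (Li+) in vitro, 1.42 in unstressed cells and 0.703 in starved cells. Over the whole ACTR2 transcript, the mean E of A and C was 1.85 in unstressed and 1.65 in starved cells. Within 30 nt the values near both sites were lower in both. They count stops that were not listed as 0, however, whereas the transcript mean includes such stops. In unstressed cells, 9 of the 19 A and C near site 1 and 7 of the 12 near site 2 were listed. Set over the mean of listed stops only, the value near site 1 was 2.19 in unstressed and 0.537 in starved cells. The unstressed values near the sites were therefore not called low. With a window of 15 nt, the value near site 1 was 2.33 in unstressed cells, above the transcript mean, and 0.383 in starved cells. Near site 2 it was 1.42 and 1.21. Only the low value near site 1 in starved cells was thus far under the mean with either window.

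The sides of the ACTR2 sites were also read apart. RT reaches the 3′ side first, and only 4 A or C lie within 30 nt on the 5′ side of site 1 and 3 on that of site 2. On the 5′ side of site 1, these had 11 stops in the library labelled K+, 0 listed in that labelled Na+, 0 and 5 after refolding in K+ and Li+, 11 in unstressed cells and 4 in starved cells. On the 5′ side of site 2, the counts in the same order were 14, 0, 0, 8, 10 and 0. At these few A and C, listed stops were thus missing in the library labelled Na+ and in vitro in K+, where the stops at G were strongest. At site 2 they were also missing in starved cells. There, E at nucleotide 1996 was 1.41, against 2.32 in vitro in Li+, while over the 6 stops of the site it was 16.9, against 17.1.

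ACTR3, which pairs with ARP2 in the branch nucleus, had its site 36 nt past the stop codon, at nucleotide 1613. The count there was 425 in the library labelled Na+ and 8 in that labelled K+ (E of 62.9 and 1.11). In vitro it was 23 in K+ and 22 in Li+, and in cells 10 unstressed and 17 starved. The ratio of E was 1.40 for K+ over Li+ in vitro (interval 0.744 to 2.63) and 1.01 for starved over unstressed cells (interval 0.435 to 2.46). A difference was not detectable at this depth in either comparison, and no folding score was calculated because the in vitro ratio was under 2-fold.

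ARPC1B, the more G-rich of the propeller subunits, had the highest E of the 8 mRNAs. Its site 1 lay 60 nt past the stop codon, at nucleotide 1299, with 663 counts in the library labelled Na+ and 7 in that labelled K+ (E of 168 and 1.97). Refolded RNA gave 46 counts in K+ and 26 in Li+, and cells gave 6 when unstressed and 20 when starved. The in vitro ratio was 2.43 (interval 1.47 to 4.09), like that of ACTR2 site 1. In cells, however, E was 3.03 unstressed and 15.3 starved, a 5.06-fold difference (interval 1.96 to 15.4). The folding score was -0.42 in unstressed cells (interval -0.60 to -0.09) and 0.72 in starved cells (interval 0.16 to 1.49). Over the 3 stops of the site, the starved score was 0.52 (interval 0.03 to 1.17), which overlaps the interval of ACTR2 site 2. With the mean of the 3′ UTR in place of the transcript, an alternative added after seeing the data, it was 0.20 at the strongest stop (interval -0.17 to 0.72) and -0.00 over the 3 stops. The rise of E in starved cells therefore held with either mean, at a ratio of at least 1.16 by the lowest interval, while the closeness of ARPC1B to the K+ state depended on the mean.

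A weaker site of ARPC1B lay 150 nt past the stop codon and held the stop nearest to the limit of 2-fold. At nucleotide 1389 the counts were 50 and 12 in the libraries labelled Na+ and K+ (E of 12.6 and 3.37), a 3.75-fold difference and the smallest of the 19 stops. The next G, at nucleotide 1390, was just outside, with E of 8.59 and 3.65. No strong stop at G on the 8 mRNAs differed by under 2-fold. ARPC1A, the alternative to ARPC1B, had no strong stop at G, and its only G-run pattern with runs of at least 2 G had an E of at most 1.45 in the library labelled Na+. Of the 25-nt words of ARPC1B, 82.7% also lie in other genes, nearly all in a longer annotated gene that holds parts of both ARPC1A and ARPC1B, and 77.6% of those of ARPC1A lie in other genes, mostly in the same one, so the source of the reads of both, and with it their shares, is uncertain.

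The A and C nucleotides near ACTR3 and ARPC1B were read in the same way. Within 30 nt of the ACTR3 site, the mean E of 19 A and C was 3.79 in unstressed and 1.89 in starved cells. Within 30 nt of ARPC1B site 1, that of 18 A and C was 3.08 and 1.96. Near these sites A and C were thus above the transcript mean in cells. The lack of listed stops on the 5′ side was not found here, as the mean E of A and C there was 0.867 at ACTR3 and 0.477 at ARPC1B in the library labelled Na+, and 1.85 and 1.65 in vitro in K+. Near ACTR2 site 1 they were under the transcript mean in starved cells, and in unstressed cells on which side they lay depended on the window. Within 30 nt of the ARPC5 site the mean E of A and C was also under that of the transcript (0.504 unstressed and 0.243 starved). There, 4 and 3 of the 23 A and C were listed, and the others counted as 0. At the ARPC4 site the mean E was 0.300 and 0, but ARPC4 was under the minimum in cells. Of its 12 A and C there, 1 was listed in unstressed and 0 in starved cells, so nothing was read from these values. At the ARPC3 site and ARPC1B site 2 the mean E was above that of the transcript.

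The core subunits differed from each other. ARPC2 had no cation-sensitive stop, and E reached at most 2.21 in the library labelled Na+ within its 3 G-run patterns. ARPC4 had stops at nucleotides 684 and 707 of the transcript, 115 and 138 nt past the stop codon, with 52 and 36 counts in the library labelled Na+, and neither was listed in the library labelled K+. In vitro, nucleotide 684 had 7 counts in K+ and none listed in Li+, nucleotide 707 had none listed in K+ and 4 in Li+, and the ratio in E over both was 2.36, with an interval from 0.600 that held 1. Neither was listed in cells. Its transcript was listed only from nucleotide 365 on, and 37.5% of its 25-nt words lie in other genes, mostly in the readthrough transcript ARPC4-TTLL3. The only strong stops at another base were at C nucleotides 426 and 443 of ARPC4, each with 13 counts in the library labelled K+.

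ARPC3 had its site 177 nt past the stop codon, at nucleotide 807, with 545 counts in the library labelled Na+ and 17 in that labelled K+ (E of 58.0 and 1.79). The count was 20 in vitro in K+ and 14 in Li+, a ratio in E of 1.94 (interval 0.933 to 4.16). In cells it was 3 unstressed and 25 starved, a ratio in E of 2.49 (interval 0.759 to 12.9). Both intervals held 1. Of its 25-nt words 46.0% recur in other genes, mainly ARPC3 pseudogenes, but none of those over the stop does, and the same is true of the 17.8% of ACTR2, which all lie before its sites. Over the stops of ARPC1B, in contrast, shared words were found at both sites, 25 at site 1 and 15 at site 2, so its site values may include reads of the other gene. ARPC5 had the only stop in a 5′ UTR, 57 nt before the start codon, with 45 counts in the library labelled Na+ and none listed in that labelled K+ or in cells. Its E of 10.7 was the lowest of the 19 stops, and nucleotides 704 and 963 of ARPC4 were just under the limit with 9.71.

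**Figure D2:**
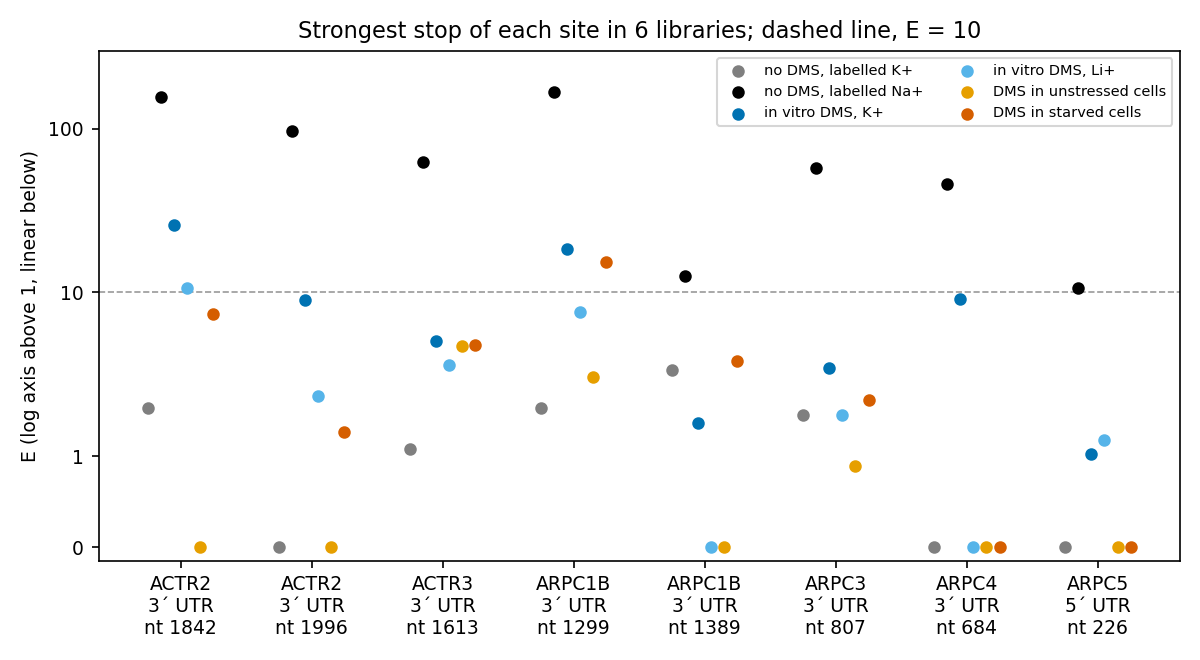
RT-stop enrichment score (E) at the strongest stop of each of the 8 sites, with 1 point per library; the axis is logarithmic above 1 and linear below, and 0 stands for a stop that is not listed. The library labelled Na+ is highest at every site, and starved cells reach an E of 15.3 at ARPC1B nucleotide 1299 and 7.38 at ACTR2 nucleotide 1842.

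In total, 6 of the 8 sites had listed stops in both in vitro libraries. E was higher in K+ at 5 of them, against 74.1% of such sites on all transcripts. It was at least 2-fold higher at 3 of them (50.0%), against 28.6% on all transcripts, and these were both sites of ACTR2 and site 1 of ARPC1B. With stops that were not listed counted as 0, starvation went with the higher folding score at all 3, as at 78.4% of 116 such sites on all transcripts, whose median scores were -0.28 and 0.30. At ACTR2 site 2 this order rested on that choice, with -0.13 unstressed and -0.14 starved when such stops were counted as 2. The direction at ACTR2 site 1 and ARPC1B site 1 was the common direction of the libraries, and the ACTR2 scores in starved cells were under the median.

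Stops at A and C show how much DMS had modified the mRNAs. On ACTR2, whose sequence is 46.1% A and C, these bases held 48.6% of the stops in the library labelled K+ and 43.1% in that labelled Na+. They held 76.5% (K+) and 76.2% (Li+) in vitro, 85.1% in unstressed cells (Clopper-Pearson interval 84.1 to 86.0) and 75.9% in starved cells (interval 75.1 to 76.7). All 8 mRNAs had a smaller share at A and C in starved than in unstressed cells, from 87.0% and 78.8% on ARPC5 to 78.2% and 63.7% on ARPC4. The same held for all matched transcripts, with 83.9% and 74.6%, so the shift is not particular to these mRNAs. Whether it had a part in the differences at G was not tested.

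**Figure D3:**
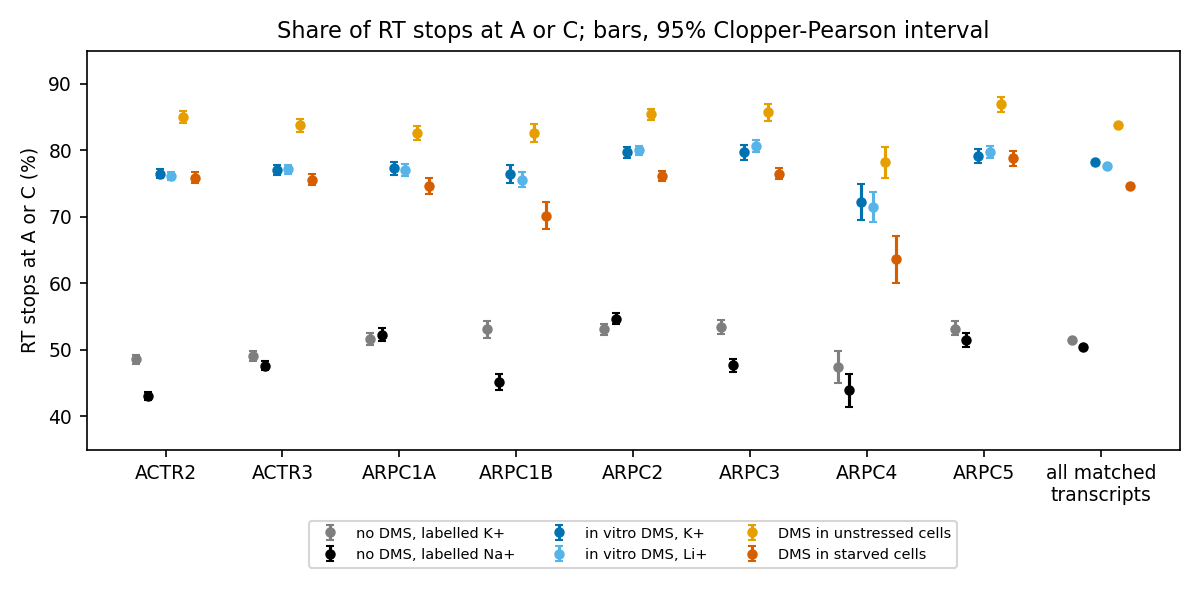
Percent of stops that fell on A or C for the 8 mRNAs and for all matched transcripts, with 1 point per library and bars for the 95% Clopper-Pearson interval. Starved cells lie under unstressed cells on every mRNA, at 75.9% against 85.1% on ACTR2 and 63.7% against 78.2% on ARPC4.

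The position of stops also differed between cells and RNA in vitro. On ACTR2, the 3′ UTR held 74.0% of listed stops with the label K+, 72.1% after refolding in K+, 94.5% in unstressed cells and 92.2% in starved cells. On all matched coding transcripts the shares were 39.0%, 37.5%, 51.5% and 44.0%. ARPC1B went from 42.6% in unstressed to 64.5% in starved cells and ARPC1A from 33.8% to 46.1%, whereas ARPC3 stayed at 34.1% and 33.8%. The deposited means cover the whole transcript, so E at 3′ UTR sites contains this difference in position.

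Per nucleotide of transcript, ARPC2 and ARPC3 had the most stops and ARPC4 the fewest in all 6 libraries. In unstressed cells the means were 4.77 stops per nucleotide for ARPC2, 3.39 for ARPC3, 3.04 for ARPC1A, 2.11 for ACTR3, 1.98 for ARPC1B, 1.64 for ARPC5, 1.41 for ACTR2 and 0.832 for ARPC4. In starved cells the order was led by ARPC3 with 11.3, followed by ARPC2 with 8.79. As a share of all stops, ACTR2 had 478 SPM in the library labelled K+, 527 in that labelled Na+, 469 (K+) and 462 (Li+) in vitro, 310 in unstressed cells and 379 in starved cells. Its share was thus lower in both libraries of cells than in the other 4.

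The change from unstressed to starved cells differed among the subunits. Of 7 mRNAs past the minimum in both libraries of cells, 3 differed by at least 1.5-fold (42.9%), against 60.2% of 1393 transcripts, a smaller share on a list of 7. ARPC3 went from 179 to 362 SPM, 2.02-fold higher (interval 1.94 to 2.11), with 29.8% of all transcripts at least 1.5-fold higher. ARPC1A went from 276 to 168, a ratio of 0.608 (interval 0.584 to 0.633), and ARPC1B from 176 to 69.9, a ratio of 0.398 (interval 0.376 to 0.421), with 30.4% of all transcripts at least 1.5-fold lower. Both forms of the propeller subunit thus had a lower share in starved cells, ARPC1B more so. By stops in the 3′ UTR alone, ARPC1A was within 1.5-fold, and the source of the reads of both is uncertain.

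ACTR2, ACTR3, ARPC2 and ARPC5 stayed within 1.5-fold. The ratio was 1.22 for ACTR2 (interval 1.18 to 1.26), 1.02 for ACTR3 (0.989 to 1.06), 1.11 for ARPC2 (1.08 to 1.15) and 0.924 for ARPC5 (0.883 to 0.966). ARPC4, which was under the minimum in cells, went from 68.5 to 25.5 SPM (ratio 0.373). The median log2 ratio of the 7 mRNAs was 0.03, and that of all transcripts was 0.02. With listed stops only, the log2 ratio of ARPC1B was -1.72 in place of -1.33, that of ARPC1A -0.87 in place of -0.72 and that of ARPC4 -2.27 in place of -1.42. With listed stops of the coding sequence over those of all coding sequences, an alternative added after seeing the data, ARPC1B was at -2.58 and ARPC1A at -1.38, while in the 3′ UTR they were at -0.87 and -0.18. The loss of share for these 2 mRNAs was thus smaller in the 3′ UTR, where ARPC1A was no longer past 1.5-fold. For ACTR2 the log2 ratio was 0.32 with listed stops only, 0.63 by coding sequence, past 1.5-fold, and 0.53 by 3′ UTR, so its place within 1.5-fold depended on the stops counted and the total they were set against.

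**Figure D4:**
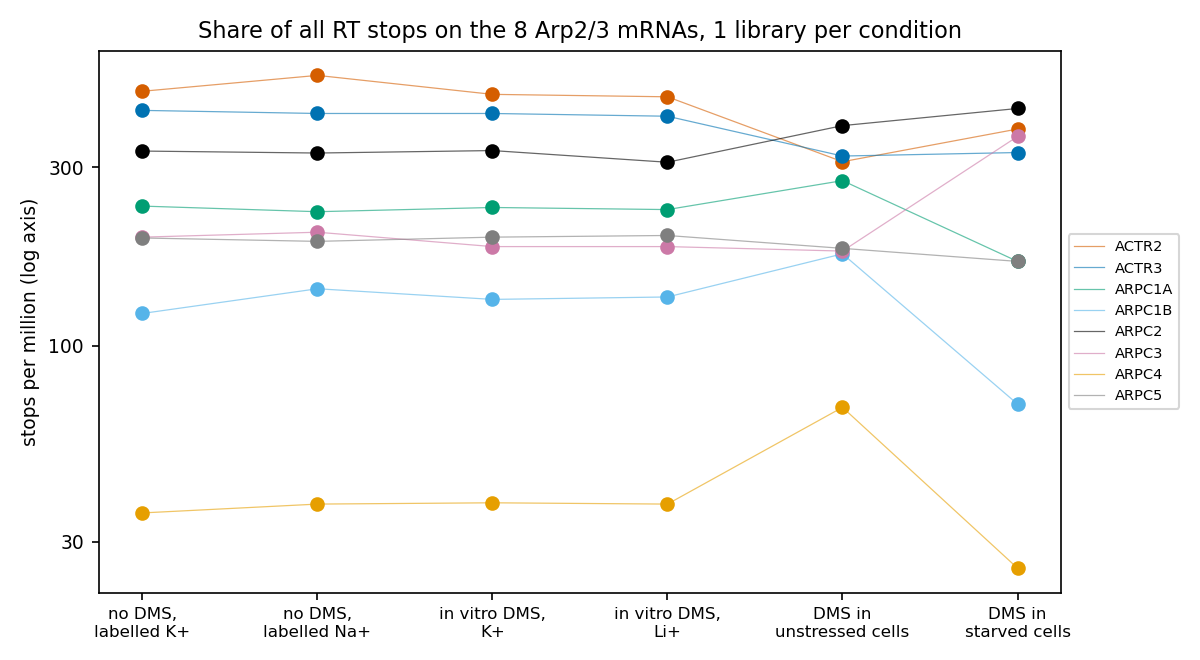
Stops per 1000000 stops of all matched transcripts (SPM, log axis) for the 8 mRNAs, with 1 point per library joined by a line for each gene. The 4 libraries without treatment in cells lie close together for each gene, while in starved cells ARPC3 is at 362 and ARPC1B at 69.9.

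Base composition moved with these ratios. ARPC1B and ARPC4 have 58.1% and 54.7% G and C and ARPC1A has 50.1%, and these 3 had the lowest ratios, whereas ACTR2 has 37.7% and ARPC3 42.7%. Spearman's rho between the percent of G and C and the log2 ratio was -0.71 over the 8 mRNAs and -0.68 over 1393 transcripts. These points share the same 2 libraries and so the same amplification and modification, and the part of base composition in the ratios was not tested. In these libraries a change in the amount of an mRNA and a change in how often it was recovered cannot be told apart.

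**Figure D5:**
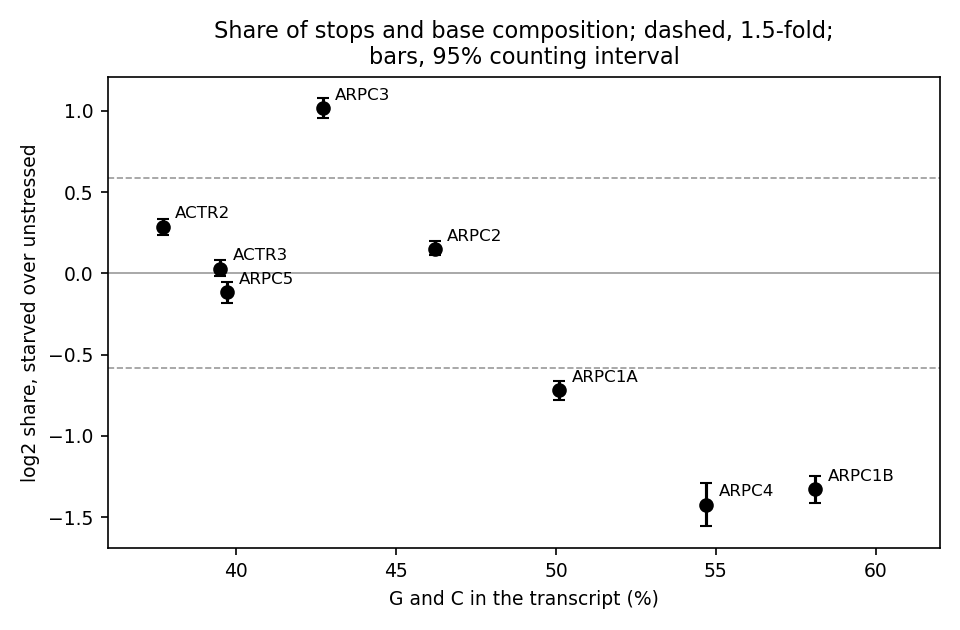
Log2 ratio of the share of stops in starved over unstressed cells against the percent of G and C in the transcript, with bars for the 95% counting interval and dashed lines at 1.5-fold. ARPC1B at 58.1% and ARPC4 at 54.7% have log2 ratios of -1.33 and -1.42, and ARPC3 at 42.7% has 1.02.

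Of the paralogs, ARPC5L was matched. Its strongest cation-sensitive stop lay in the 3′ UTR, with 113 and 3 counts in the libraries labelled Na+ and K+ (E of 36.1 and 0.918). In cells ARPC5L went from 113 to 64.3 SPM, a ratio of 0.567, while its paralog ARPC5 stayed within 1.5-fold. No transcript of ACTR3B or ACTR3C was matched.

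In the pathway around the complex, 35 of 46 genes were matched and 20 passed the minimum in both libraries without DMS, and 8 of these had a cation-sensitive stop at G, a share near the 37.6% of all transcripts. Among the factors that switch the complex on, these were WASF2 (E of 197 by the label Na+) and BRK1 (104), parts of the WAVE complex, and its ABI subunits ABI2 (17.7) and ABI1 (15.4). The GTPase RHOG (25.7), CORO1C (49.6), a coronin, and CAPZB (70.0) and CFL1 (39.3), which cap and sever filaments, completed the 8. In WASF2, BRK1, CAPZB, CORO1C and CFL1 the strongest stop lay in the 3′ UTR, in RHOG and ABI2 in coding sequence and in ABI1 in the 5′ UTR. Of 10 pathway genes past the minimum in cells, 2 had a share at least 1.5-fold higher in starved cells and 4 a lower share, against 29.8% and 30.4% of all transcripts. The lower ones included 3 of the genes with a stop, CFL1 (ratio 0.242), CAPZB (0.349) and CORO1C (0.657).

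The transcripts whose shares over the 6 libraries were most like those of ACTR2 were MOB1A, CLIC4 and DNAJA1. Their root mean square differences from ACTR2 on the centred log2 scale were 0.060, 0.082 and 0.086, the smallest among 1378 transcripts past the minimum in all 6 libraries. MOB1A had 119 SPM in unstressed and 137 in starved cells, with 180 in the library labelled K+.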

How the data were processed

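The authors removed duplicate reads, mapped the rest with Bowtie to hg19 transcripts, and deposited the count of RT stops for each nucleotide with at least 3, by their processing notes. They also deposited the ratio of each count to a mean of the transcript, which in the files is the mean of all A, C, G or T. A whole-transcript mean was put together from these 4 and the base counts. Positions not listed were taken as 0. For the pair without DMS, names of the deposited files contradict the labels, which were followed. Listed bases placed transcripts on GENCODE release 44 (10459 of 11031 with at least 15 listed bases).

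Ratios have exact conditional binomial intervals, shares Clopper-Pearson intervals and folding scores the exact Poisson interval of the count in cells. No test was run, with 1 library per condition. Transcripts needed on average 1 stop per nucleotide or more, and folding scores an in vitro ratio of at least 2. Named were the 8 members, their paralogs, pathway genes with a cation-sensitive stop at G (at most 10), the 3 transcripts most like ACTR2 and the stops nearest the thresholds. The members and lists were chosen with earlier results of these data known. The calculation was tested on simulated data. Alternatives changed the mean behind E, the thresholds, the cation assignment, the windows and the scale; those by site sum, by 3′ UTR mean (ACTR2, ARPC1B) and by region of the share were added after seeing the data. The tools were scipy 1.17.1, numpy 2.4.6, matplotlib 3.10.9 and pandas 2.3.3 under Python 3.11.15.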

Additional observations from a re-analysis of the deposited data

How the results depend on the processing

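The count of 19 cation-sensitive stops at G was 15 to 23 under the alternatives, except with strong stops at an E of at least 5, which gave 43 stops, 32 of them in 3′ UTRs and 9 stronger in the library labelled K+, on 7 mRNAs. All 19 were among the stops called under each alternative but that with an E of at least 20, which kept 15. With the opposite cation assignment, the log2 ratios at ACTR2 sites 1 and 2 turned from 6.31 and 7.50 to -6.31 and -7.50 by construction. Summed over 5 nt they were 4.88 and 4.10.

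The in vitro ratios at both ACTR2 sites kept their direction within the counting interval. The folding score in unstressed cells was -0.76 (site 1) and -0.38 (site 2) with the deposited ratio as E, -1.03 and -0.52 summed over all cation-sensitive stops, an alternative added after seeing the data whose in vitro ratio of 1.97 at site 1 is under the limit for a score, and -0.80 at site 2 over 5 nt. The score in starved cells was -0.37 at site 2 over 5 nt. With stops that were not listed counted as 2, the scores at site 2 were -0.13 unstressed and -0.14 starved, which turns their order. Summed over the stops of site 2, an alternative added after seeing the data, that count gave -0.26 unstressed in place of -0.52, and starved 0.02 in place of -0.01, a turn of sign. The starved score of ARPC1B site 1 went from 0.72 to 0.20 with the mean of the 3′ UTR and turned to -0.00 over its stops with that mean, alternatives added after seeing the data. With a window of 15 nt, the mean E of A and C was 2.33 near site 1 in unstressed, above the transcript mean of 1.85, and 1.21 near site 2 in starved cells. The count of members past 1.5-fold in their share was 2 to 4 under the alternatives. With listed stops only, the log2 ratio of ARPC4 moved from -1.42 to -2.27.

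Counts in cells were low, with 5 of 8 strongest stops not listed in unstressed cells and at most 25 counts at a strongest stop in starved cells. The cause was not tested. The distance between the ACTR2 sites had no alternative.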
